A study of Schizosaccharomyces pombe with 28 samples.

Results

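Occupancy of Hrp1-myc over intergenic regions (IGRs) of fission yeast, Schizosaccharomyces pombe, was measured on 3 of the 28 arrays of the series, each of which compared chromatin immunoprecipitated (IP) through a myc tag on Hrp1, in Cy3, with input chromatin in Cy5. The arrays were taken by their titles and are named here as there, A260E, K080D slide 1 and K080D slide 2. Of 5171 features, 208 whose name ended in "missing" were left out, and the remaining 4963 regions were measured with 2 spots on every array. The series concerned the histone demethylase Swm1, and other arrays compared swm1Δ with wild-type cells for expression and histone methylation. The rest measured Hrp1-myc over open reading frames, Hrp3-myc, or, by their labels, histone H3 in hrp1 deletion cells. The 3 Hrp3-myc IGR arrays, also IP in Cy3 over input in Cy5, served as the comparison. The IP was in Cy3 on all of these by their labels, which give no dye swap. The labels give no genotype beyond the tag, and neither promoter nor clone of the tagged strains, and do not say whether arrays came from separate cultures, so spread between arrays may be technical. No untagged control was used here.

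Hrp1 is an ATP-dependent chromatin remodeller of the CHD family, whose members carry chromodomains in front of a Snf2-type motor that slides or spaces nucleosomes. In fission yeast it is known for loading the centromeric histone CENP-A and for disassembling nucleosomes near promoters, and its paralogue Hrp3 is known for nucleosome spacing within genes. An IGR array reads the DNA between genes, where most promoters lie, so a high IP/input ratio marks a region recovered with the tagged protein more than the typical region of that array.

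The regions that carry the results are shown through the promoter windows of their genes. Each window ran from 250 bases before to 50 bases after the gene start of RefSeq assembly ASM294v3, read 5′ to 3′ on the strand of the gene. The probe coordinates and the side of the gene that a probe covers were not given in the sources used here, so a window stands for the gene and not for the probe. Capitals mark every match, on either strand, to AACCCT (the box of histone gene promoters), CAGTCACA (the HomolD box of ribosomal protein genes), TATAAA (the TATA box), TGACGT (the site of Atf1-type factors) or AAAAAAAA. The windows of utp8, nab3 and SPCC622.01c belong to regions among the highest of A260E and K080D slide 2, and slu7 is among the lowest. hta1 and h4.3 are the highest histone genes.
utp8, chrI:1296919-1297218, plus strand: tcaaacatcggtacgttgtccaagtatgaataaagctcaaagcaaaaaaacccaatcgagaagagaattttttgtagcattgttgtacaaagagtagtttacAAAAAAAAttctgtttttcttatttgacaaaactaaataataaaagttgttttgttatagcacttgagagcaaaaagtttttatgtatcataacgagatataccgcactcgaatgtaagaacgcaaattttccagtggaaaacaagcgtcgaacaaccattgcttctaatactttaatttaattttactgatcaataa
nab3, chrI:607162-607461, minus strand: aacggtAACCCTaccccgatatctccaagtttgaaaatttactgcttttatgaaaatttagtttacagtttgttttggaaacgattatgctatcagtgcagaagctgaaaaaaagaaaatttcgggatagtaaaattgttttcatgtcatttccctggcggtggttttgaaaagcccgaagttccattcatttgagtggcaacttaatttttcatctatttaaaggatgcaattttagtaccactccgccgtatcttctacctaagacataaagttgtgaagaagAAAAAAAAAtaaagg
SPCC622.01c, chrIII:1404852-1405151, minus strand: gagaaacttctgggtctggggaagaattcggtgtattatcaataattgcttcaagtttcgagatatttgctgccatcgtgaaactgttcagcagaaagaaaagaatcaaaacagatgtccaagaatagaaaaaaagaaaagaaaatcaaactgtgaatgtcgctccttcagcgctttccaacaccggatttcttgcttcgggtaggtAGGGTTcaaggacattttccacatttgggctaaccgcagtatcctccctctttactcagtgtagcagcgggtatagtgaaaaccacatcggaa
slu7, chrII:2506624-2506923, minus strand: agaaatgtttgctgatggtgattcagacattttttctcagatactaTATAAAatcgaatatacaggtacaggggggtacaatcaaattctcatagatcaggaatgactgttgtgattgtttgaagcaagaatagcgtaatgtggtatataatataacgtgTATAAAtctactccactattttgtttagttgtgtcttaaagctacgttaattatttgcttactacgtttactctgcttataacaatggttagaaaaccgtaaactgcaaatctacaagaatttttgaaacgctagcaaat
hta1, chrIII:1412132-1412431, minus strand: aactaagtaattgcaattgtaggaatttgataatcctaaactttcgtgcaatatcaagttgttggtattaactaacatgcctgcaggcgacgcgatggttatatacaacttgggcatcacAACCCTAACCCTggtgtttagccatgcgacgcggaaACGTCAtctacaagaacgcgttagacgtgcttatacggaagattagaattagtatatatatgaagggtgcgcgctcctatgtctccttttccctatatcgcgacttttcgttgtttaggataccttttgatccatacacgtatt
h4.3, chrII:3529517-3529816, plus strand: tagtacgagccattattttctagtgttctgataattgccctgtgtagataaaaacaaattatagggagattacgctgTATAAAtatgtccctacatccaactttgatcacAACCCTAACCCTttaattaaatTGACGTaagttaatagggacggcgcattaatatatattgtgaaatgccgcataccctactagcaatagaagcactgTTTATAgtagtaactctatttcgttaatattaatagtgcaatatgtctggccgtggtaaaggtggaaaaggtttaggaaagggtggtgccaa
The histone windows each held AACCCT in 2 copies side by side.

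The array labels have to be read with care, since the same scans carry 2 experiment names. After a change of log base, the values deposited for 3 IGR arrays labelled Hrp1-D H3 cter, which name an H3 IP of hrp1 deletion cells, equalled those of the Hrp1-myc arrays within 0.01. This held on 99.96% of 9270 spots for A260E slide1 against A260E, on 99.95% for slide X against K080D slide 1 and on 99.91% for slide 20 against K080D slide 2. Pairs of arrays that did not match shared between 2.72% and 4.43% of values. The label of slide X places input in Cy3 and the IP in Cy5, opposite to the label of K080D slide 1. Across spots the deposited values of A260E and K080D slide 2 followed the Cy3 signal (Spearman's rho 0.988 and 0.999), and those of K080D slide 1 followed Cy5 (0.985, against 0.765 for Cy3). On 3 arrays of open reading frames (ORFs) labelled Hrp1-myc, the hrp1 probe gave signal at a percentile of 86.4 or more of Cy3 and 73.5 or more of Cy5. Whether the ORF and IGR arrays were hybridised with the same material is not given in the sources used here, and which label holds for the IGR scans was not tested. "Hrp1" below means the arrays labelled so.

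Ratios were log2 of IP over input after background correction, centred on the median of each array, so 0 is the typical region. Median signals were 2669.5 to 8609.5 scanner units in Cy3 (IP) and 3162.5 to 9181.5 in Cy5 (input), and between 99.5% and 99.7% of spots were bright, that is at least 1.5 times background in both dyes. K080D slide 1 had a median background of 4 in Cy3 and 893 in Cy5, against 174 to 232.5 per dye on A260E and K080D slide 2. The Cy3 limit was therefore easily met on K080D slide 1. The 2 spots of a region correlated with Spearman's rho of 0.90 to 0.98 across regions. K080D slide 1 had the widest ratios, with an SD of 0.91, against 0.59 on A260E and 0.50 on K080D slide 2, and the only saturated spots, 30 in Cy3 and 87 in Cy5. A260E and K080D slide 2 had the same sign in 3476 regions (70%), with rho of 0.56 across regions. Against Hrp3-myc K080D slides 2 and 3, rho was 0.42 and 0.46 for A260E, and 0.47 and 0.55 for K080D slide 2. The 2 Hrp1 arrays were thus little closer to each other than K080D slide 2 was to Hrp3 slide 3. K080D slide 1 ran against both, in the range of rho −0.18 to −0.16 across the same regions, with probes and base composition shared. Its direction is therefore given as labelled and, where it matters, turned.

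No region was enriched or depleted on all 3 arrays by a test. Limma on the ratio against 0 called 0 of 4963 regions higher and 0 lower (0% each way) at an adjusted p of 0.05, with a smallest adjusted p of 0.847, and 287 regions had an unadjusted p under 0.05. The study's methods rank by the median percentile over the 6 data points of a region instead, and with a limit of 0.90 and its mirror of 0.10 this gave 207 high regions (4.17%) and 227 low ones (4.57%). Just inside the high limit lay rpl28-1, SPAC26F1.07 and SPAC589.06c, and just outside it clr5, SPBPB2B2.06c and gcs1. Their ratios overlapped, at 0.76 to 0.86 inside and 0.76 to 1.04 outside on A260E. A stricter description used the 4 data points of a region on A260E and K080D slide 2. All 4 ranked at 0.90 or more in 130 regions (2.62%) and at 0.10 or less in 148 regions (2.98%), and all of these were bright. They lie within the 207 and the 227 by construction, since 4 of the 6 data points fix which side of the limit the median takes. A260E and K080D slide 2 were chosen because they ran the same way, so their agreement is no result. With K080D slide 1 left out, limma called 343 regions higher (6.91%) and 337 lower (6.79%). These calls rest on 2 arrays kept for their agreement, so they are no independent support. With A260E or K080D slide 2 left out instead, limma called 0 in either direction.

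**Figure D1:**
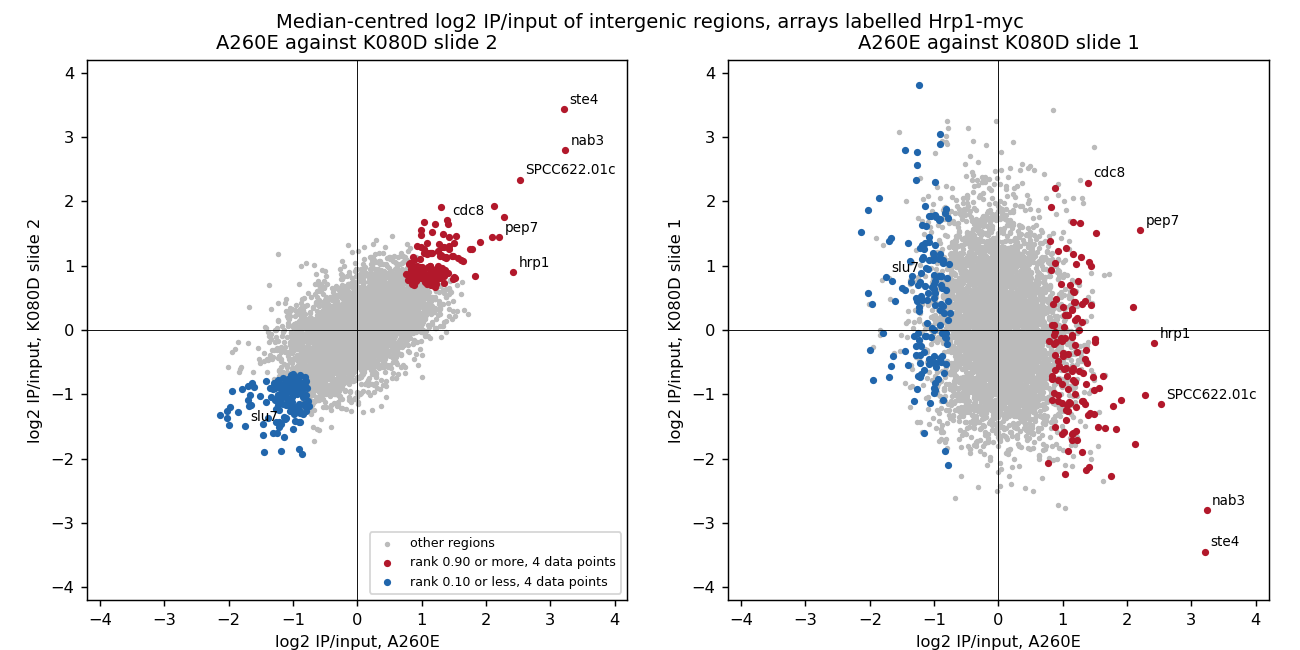
Median-centred log2 IP/input of 4963 regions on A260E (horizontal) against K080D slide 2 (left panel, vertical) and K080D slide 1 (right panel, vertical), both without units; each point is 1 region, red where all 4 data points of A260E and K080D slide 2 ranked at 0.90 or more, blue where all ranked at 0.10 or less and grey otherwise. ste4 and nab3 stand at 3.21 and 3.24 on A260E, at the top of K080D slide 2 and at the bottom of K080D slide 1.

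The highest region was that of ste4, the adaptor that links pheromone signals to the MAP kinase cascade of mating. Its IP and input signals were 26631 and 5223 units on A260E, 19542 and 2892 on K080D slide 2, and 5595 and 41105 on K080D slide 1. The centred ratio was 3.21 on A260E, 3.43 on K080D slide 2 and −3.45 on K080D slide 1, so the last array put the region at its lowest point. The mean of A260E and K080D slide 2 was 3.32 ± 0.16 (SD, n = 2), a 9.99-fold enrichment. On the Hrp3 arrays the ratio was 2.03 on K080D, −0.41 on slide 2 and −0.15 on slide 3. The neighbouring probe utp8, named for a gene whose budding yeast counterpart acts in ribosomal RNA processing, lies on the other side of the same 625-base gap and gave 2.13, 1.93 and −1.78 on A260E, K080D slide 2 and K080D slide 1.

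nab3, a gene for a poly(A)-binding protein (chrI:604312-607211, minus strand), was next, with 3.24 on A260E, 2.80 on K080D slide 2 and −2.80 on K080D slide 1. Its mean over the agreeing arrays was 3.02 ± 0.31 (SD, n = 2), and 2.30 without background correction. With K080D slide 1 turned, limma called ste4 (adjusted p = 0.00322) and nab3 (adjusted p = 0.00583) higher and no other region in either direction, that is 2 of 4963 (0.0403%). The turn was prompted by the same values, and these calls rest on it.

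SPCC622.01c and SPCC622.02, both for uncharacterised proteins, lie close together on opposite strands of chromosome III, with the start coordinate of SPCC622.03c between theirs. SPCC622.03c itself gave −0.24, −0.16 and 0.96 on A260E, K080D slide 2 and K080D slide 1. SPCC622.01c gave 2.53, 2.33 and −1.16 on A260E, K080D slide 2 and K080D slide 1. SPCC622.02 gave 2.27, 1.76 and −1.01 on the same arrays. Both were thus high on the agreeing arrays and below 0 on K080D slide 1, as were ste4, utp8 and nab3. The Cy5 signal of K080D slide 1 was saturated for utp8 and SPCC622.01c, so their ratios there are bounds, since the true input signal may be higher.

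The other 7 of the 12 highest regions had smaller ratios. pep7, whose FYVE-domain protein tethers vesicles on the way to the vacuole, gave 2.21, 1.45 and 1.55 on A260E, K080D slide 2 and K080D slide 1, high on all 3 arrays. The long IGR probe of pgk1, the glycolytic phosphoglycerate kinase, gave 2.10, 1.44 and 0.35. The remaining 5 were pho842 (phosphate transporter), rit1 (modification of initiator tRNA), SPBC83.16c (uncharacterised), scr1 (glucose-sensing repressor) and gas5 (cell wall glucan synthesis), at 1.43 to 1.91 on A260E, 1.25 to 1.46 on K080D slide 2 and −2.28 to −1.09 on K080D slide 1.

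At the other end none of the 12 lowest regions was below −2.13 on any agreeing array. btb3, a ubiquitin ligase subunit, gave −1.998 on A260E, −1.47 on K080D slide 2 and −0.31 on K080D slide 1. slu7, a splicing factor, gave −1.75, −1.50 and 0.82. ubc12, the NEDD8-conjugating enzyme, gave −1.46, −1.63 and 2.80 and so stood at opposite ends of the arrays. The others were ppk27 (protein kinase), aar2 (U5 snRNP assembly), gnd1 (pentose phosphate pathway), vma11 (vacuolar ATPase), les1 (nuclear bridge), SPCC63.13 (DnaJ chaperone family), pdi2 (disulphide isomerase), nro1 and akr7 (pyridoxal reductase), at −2.13 to −1.31 on A260E and −1.89 to −1.20 on K080D slide 2. On K080D slide 1 these 9 ranged between −0.33 and 2.05.

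**Figure D2:**
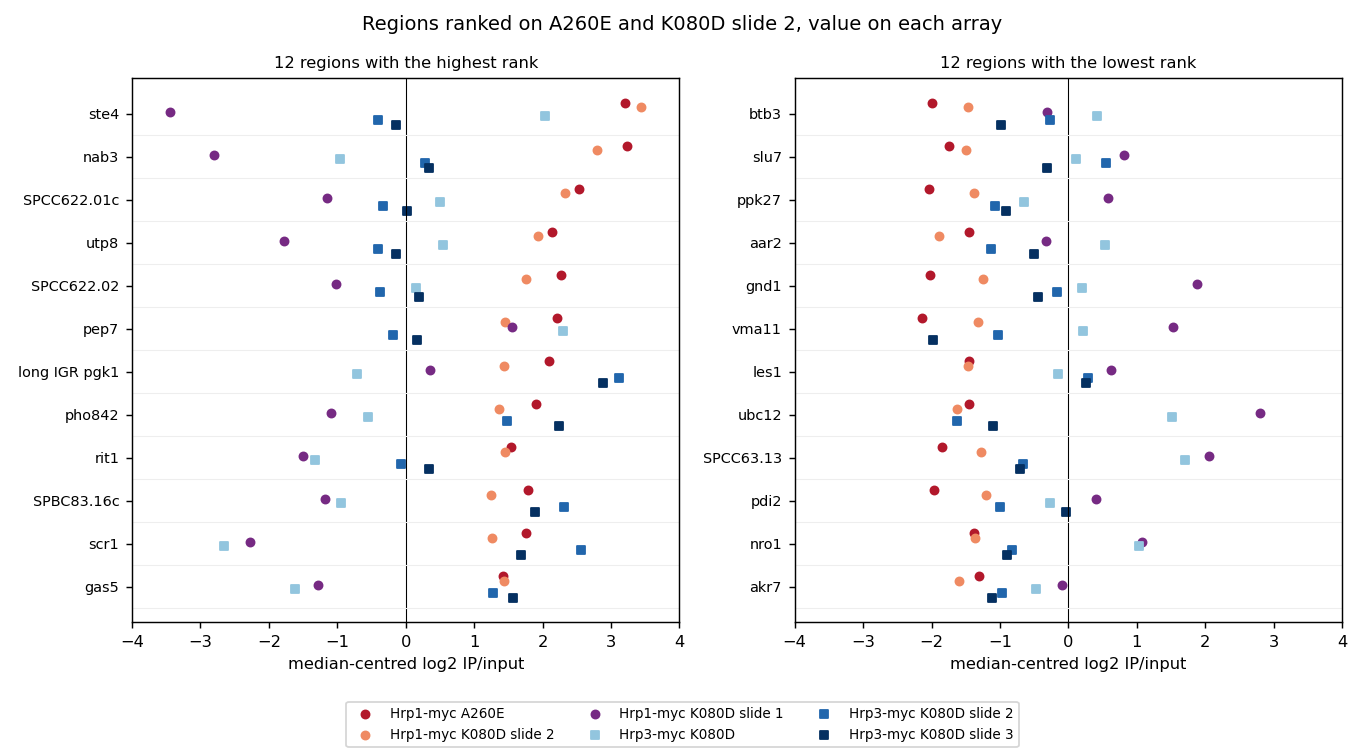
Median-centred log2 IP/input (horizontal) of the 12 regions with the highest (left) and the 12 with the lowest (right) mean rank on A260E and K080D slide 2; circles are the 3 Hrp1-myc arrays and squares the 3 Hrp3-myc arrays, 1 point per array with no error bar. K080D slide 1 of Hrp1 (purple) lies below 0 in 10 of the 12 highest regions and above 0 in 9 of the 12 lowest, and ste4, nab3, SPCC622.01c, utp8 and SPCC622.02 lie within 0.41 of 0 on Hrp3 slides 2 and 3.

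A few regions held their place on all 3 arrays as labelled. All 6 data points ranked at 0.90 or more for 9 regions, namely cdc8, pep7, rrp5, rpl21-2, trz2, btn1, SPAC27E2.11c, rpp2-3 and SPBC1711.15c, and at 0.10 or less for sec2, vps9b and abp2. cdc8, which encodes the tropomyosin of the contractile ring, gave 1.40, 1.71 and 2.29 on A260E, K080D slide 2 and K080D slide 1, with a mean of 1.80 ± 0.31 (SE, n = 3), or 0.27 ± 0.67 with K080D slide 1 turned. rrp5, an rRNA processing factor, gave 1.27, 1.33 and 1.66, and rpl21-2 and rpp2-3 encode ribosomal proteins. cdc8, pep7 and rrp5 had the lowest unadjusted p among higher regions, but the adjusted p was 0.847 for each with limma, and with K080D slide 1 turned the means of pep7 and rrp5 were 0.70 and 0.31. The lowest p among lower regions belonged to npr2 (a TORC1 regulator), spt7 (a SAGA subunit) and amf1 (a transporter), at −1.20 ± 0.29, −1.11 ± 0.29 and −1.19 ± 0.31 (SE, n = 3), also with an adjusted p of 0.847 from limma. Turned, these were −0.59, −0.38 and −0.71, so the order of regions over 3 arrays rests on the direction of K080D slide 1.

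K080D slide 1 placed the 130 high and 148 low regions on opposite sides, which restates the reason for leaving it out and is given as a description. The high regions had a median of −0.54 on it, with 30 at a rank of 0.10 or less on it and 9 at 0.90 or more, against −0.01 over all regions. The low regions had a median of 0.50, with 33 at 0.90 or more and 3 at 0.10 or less. Both Hrp3 slides 2 and 3 were above 0 in 109 of the 130 high regions (83.8%), against 35.8% of all regions, and both below 0 in 126 of the 148 low regions (85.1%), against 36.2% of all. The Hrp3 array titled K080D had medians of −0.51 in the high and 0.37 in the low regions. Matching ORF probes of 112 high and 130 low regions on 3 further Hrp1-myc arrays had medians of 0.07, 0.12 and 0.06 in the high set and −0.06, 0.15 and −0.02 in the low set, against −0.06, 0.10 and −0.00 over all 4523 such probes. H3K4me2 in swm1Δ over wild type, a mark of promoters, had medians of 0.11 and 0.07 on its 2 IGR arrays in the high set, −0.11 and −0.06 in the low set, and 0.00 and −0.01 over all regions.

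hrp1 itself was among the high regions. Its IGR gave 2.42 on A260E, 0.89 on K080D slide 2 and −0.20 on K080D slide 1, so the 2 agreeing arrays differed by more than they did for ste4, with a mean of 1.66 ± 1.08 (SD, n = 2). hrp3 gave 0.64, 0.54 and 0.61, near in value on the 3 arrays as labelled, with a limma adjusted p of 0.881. With K080D slide 1 turned its mean was 0.19 ± 0.32 (SE, n = 3). Of the genes of the Swm complex, swm1 (SPBC146.09c) gave 0.10, 0.34 and 0.53 on A260E, K080D slide 2 and K080D slide 1, and swm2 (SPAC23E2.02) gave 0.13, 0.33 and 0.17. swp2 (SPAC30D11.08c) gave −0.03, 0.74 and −1.48, and swp1 (SPCC4G3.07c) gave −0.88, −0.66 and 0.92. swp1 thus ranked low on the agreeing arrays, at 0.068 and 0.101, and swp2 ranked at 0.926 on K080D slide 2 and 0.037 on K080D slide 1. None of the 4 was in the high or the low set.

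Gene lists were described by counts and medians over A260E and K080D slide 2, beside 130 high (2.62%) and 148 low (2.98%) of all 4963 regions, whose median was −0.01. With K080D slide 1 included as labelled, 8 of the 22 list medians changed sign, among them those of hexose transporter (−0.11), mating (−0.05), iron uptake (0.09) and wtf genes (0.01). Of the 11 histone gene regions, 10 were above 0 on both arrays and none below on both, with a median of 0.61. hta1, for histone H2A, gave 1.08, 1.35 and 0.23 on A260E, K080D slide 2 and K080D slide 1, and h4.3, for histone H4, gave 1.15, 0.91 and 0.33. These were the 2 histone regions in the high set. The variant genes were lowest, with pht1 (H2A.Z) at 0.10 and 0.22 and cnp1 (CENP-A, which Hrp1 is known to load) at 0.12 and −0.35 on A260E and K080D slide 2.

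Of 137 regions of cytoplasmic ribosomal protein genes, 9 were high and 2 low, with a median of 0.23. rps15-1 gave 1.38 and 1.13 and rpl9-2 gave 1.39 and 1.12 on A260E and K080D slide 2, whereas rpl30-2 gave −0.89 and −1.29. The 18 tRNA probes, for genes transcribed by RNA polymerase III, had a median of 0.49, and 1 was high. The 165 probes named long IGR on the array had a median of 0.22 and held 11 high and 4 low regions, or 8.46% of the high set and 2.70% of the low set, against 3.32% of all regions. Neighbouring probes of 1 gene could differ, since the short probe of pgk1 gave −0.91 and −1.25 on the arrays where its long probe gave 2.10 and 1.44.

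Lists of nutrient and stress response genes had medians of −0.19 to 0.35. The hexose transporter, core stress, heat shock and stress transcription factor lists each held a larger share of high regions than the 2.62% of all regions. The iron uptake list held none. These counts were small and were not tested. Of the 6 hexose transporter regions ght5, the high-affinity glucose carrier, was high at 1.47 and 1.14 on A260E and K080D slide 2, and the list median was 0.29. Of 29 core stress response regions, 3 were high (gst1, pyp1 and pmp3) and none low, with a median of 0.10. Of 18 heat shock and chaperone regions, mcp60 (hsp60), the mitochondrial chaperonin, at 1.43 and 1.30, and hsp90 (swo1), at 0.89 and 0.97, were high, with a list median of 0.18. The 20 stress and starvation transcription factors had a median of 0.35, with scr1 and gaf1 high and pap1, the oxidative stress factor, low at −0.90 and −1.16. The 12 iron uptake regions had a median of −0.19 and none was high or low.

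Mating genes had a median of 0.18 over 24 regions, and ste4 was the only one in the high set. Of 151 meiosis and sporulation regions 3 were high and 7 low, with mug58 the lowest at −1.68 and −1.18 on A260E and K080D slide 2. The 23 wtf genes, meiotic drivers of the species, had a median of −0.37, with wtf13 and wtf1-pseudo low and none high. On K080D slide 1 as labelled their median was 0.83. Of 32 heterochromatin and deacetylase regions only dcr1, which encodes Dicer, was high, at 1.20 and 0.84, and the median was −0.08. Of 10 centromere probes the central core cnt1 was high at 1.14 and 0.99, and the pericentromeric dg1repeat was low at −1.01 and −0.75. Glycolysis (15 regions, 1 high and 1 low) and cell division cycle genes (30 regions, 2 high and none low) had medians of −0.00 and 0.03, and the 15 Set1 and Snf2-type remodeller regions, with hrp1 high and fft2 low, had 0.19.

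Lists drawn by the study from other arrays were counted in the same way. Of 244 regions of genes higher in expression in swm1Δ, 13 were high and 9 low, with a median of 0.06. Of 159 regions of genes lower in expression, 6 were high and 4 low, with a median of −0.01. Of 82 regions with high H3K4me2 in swm1Δ, 3 were high, the long probes of pma1, zfs1 and SPCC320.03, and none low, with a median of 0.30. ste4 and SPCC622.02 were in the list of genes higher in swm1Δ.

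**Figure D3:**
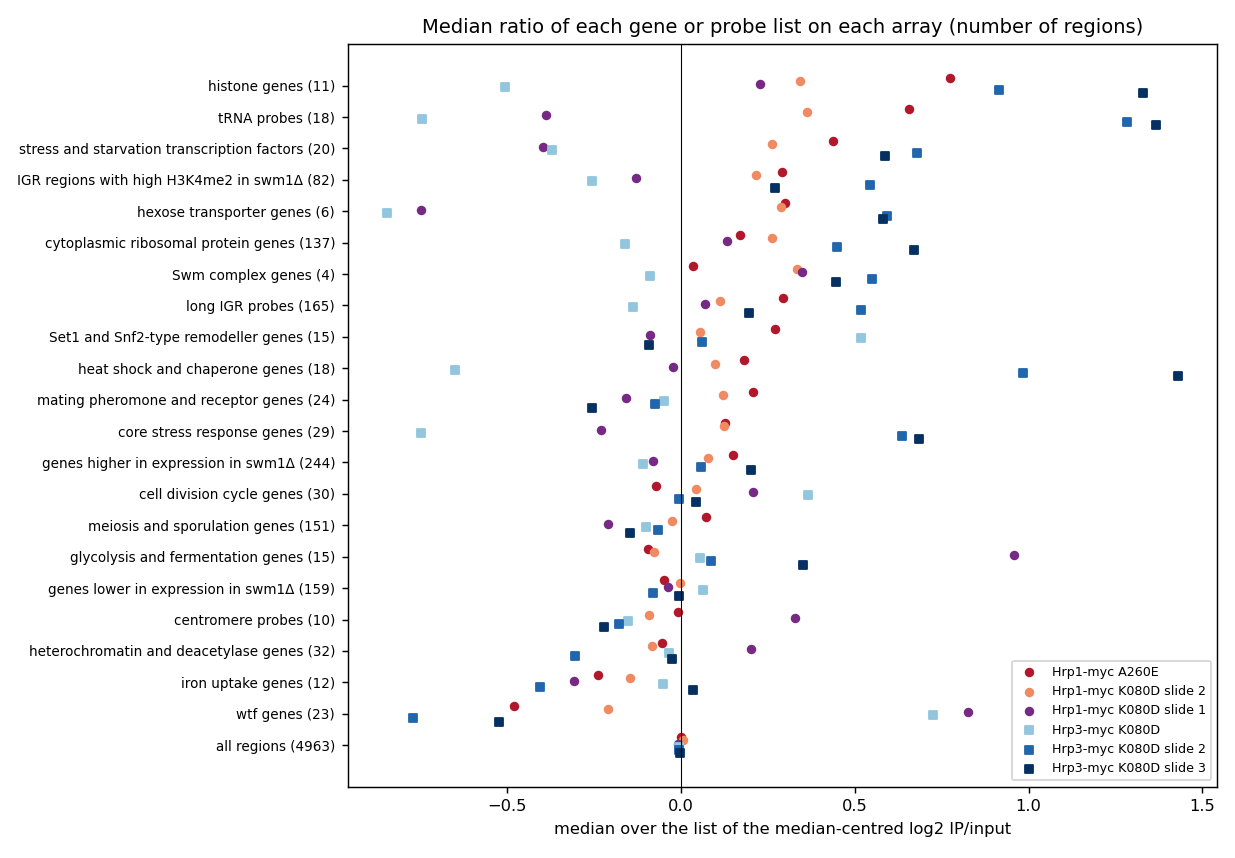
Median over each gene or probe list of the median-centred log2 IP/input (horizontal) on each array, with the number of regions in parentheses; circles are the 3 Hrp1-myc arrays and squares the 3 Hrp3-myc arrays, without error bars. Histone genes lie highest on the mean of A260E and K080D slide 2, at 0.61, and wtf genes lowest, at −0.37. Hrp3 slides 2 and 3 lie further right than these Hrp1 arrays for lists that include heat shock, tRNA, histone and ribosomal protein. For wtf genes they lie further left, at −0.77 and −0.52.

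Promoter windows could be read for 4557 regions, of which 115 were high and 135 low. AACCCT was found in 24 of the 115 high windows (20.9%) and 12 of the 135 low ones (8.89%), against 9.68% of all windows. It was also in 8 of 10 histone windows and in 39 of 124 ribosomal protein windows (31.5%). Windows can overlap, and those of SPCC622.01c and SPCC622.02 hold the same AACCCT site, so counts of windows are not counts of separate sites. CAGTCACA was found in 12 high windows (10.4%) and 2 low ones (1.48%), against 2.61% of all and 60.5% of the ribosomal protein windows. TGACGT was in 9.57% of high, 3.7% of low and 5.97% of all windows, and TATAAA in 44.3%, 40.7% and 48.2%. AAAAAAAA was in 20%, 23% and 20.6%. Among all windows the median ratio of A260E and K080D slide 2 was 0.16 with CAGTCACA and −0.02 without, and 0.05 with AACCCT and −0.02 without. The median GC content was 34.3% in high, 33.3% in low and 33% in all windows, and probe composition was not known.

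The orientation of neighbouring genes was counted in the same windows. The upstream neighbour was divergent for 54 of 115 high genes (47%) and 94 of 135 low genes (69.6%), against 54.3% of 4538 genes, and the median gap to it was 467, 548 and 433 bases. By chromosome, 2.57% of the placed regions were high on chromosome I, 2.29% on II and 2.87% on III. Of 4554 pairs of neighbouring regions, 4 were both high, 10 both low and 3 mixed. The high pairs were ste4 and utp8, tif212 and mug8, its3 and tpp1, and spt2 and rps15-1, of which all but its3 and tpp1 are divergent. SPCC622.01c and SPCC622.02 were not counted as neighbours, since SPCC622.03c was placed between them. Of the low pairs, slu7 and pmt3 (SUMO) share a gap of 171 bases, and ubc12 and gta3 one of 267 bases.

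Set against Hrp3-myc with all arrays read as labelled, Hrp1-myc gave no region past the threshold. Limma on 4962 regions called 0 higher and 0 lower (0% each way), with 68 regions at an unadjusted p under 0.05. The Hrp3 array titled K080D ran against the other Hrp3 arrays, with rho of −0.28 and −0.29, as K080D slide 1 did among the Hrp1 arrays. Its median background was 3.5 in Cy3 and 2039 in Cy5, and its rho with K080D slide 1 of Hrp1 was 0.22. With these 2 arrays left out, a choice made from the same values, 16 regions were higher for Hrp1 (0.322%) and 55 lower (1.11%) in limma at an adjusted p of 0.05. With both turned instead, ste4 alone was called, higher. Since the arrays left out disagree with those kept, the values below describe 2 Hrp1 and 2 Hrp3 arrays only. Of the kept Hrp3 arrays, slide 2 had the smaller share of bright spots, 71.1%, against 99.6% on slide 3. Slide 2 had median backgrounds of 1000 in Cy3 and 1682 in Cy5, against 265.5 and 203 on slide 3. The median Cy5 signal was 3335 on slide 2 and 2994 on slide 3. The SD of the ratio was 0.74 on Hrp3 slide 2 and 0.67 on slide 3, against 0.59 on A260E and 0.50 on K080D slide 2. Ratios were not scaled to a common spread, so the differences below carry that limit.

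The regions higher for Hrp1 were led by those at the top of the Hrp1 arrays. ste4 gave 3.21 and 3.43 on the 2 Hrp1 arrays, against −0.41 and −0.15 on Hrp3 slides 2 and 3, a difference of 3.60 ± 0.34 (SE, limma adjusted p = 8.78e-07). nab3 gave 3.24 and 2.80, against 0.28 and 0.34 on Hrp3, a difference of 2.70 ± 0.34. SPCC622.01c gave 2.53 and 2.33, against −0.33 and 0.02 on Hrp3, a difference of 2.58 ± 0.34. In each of the 3 the arrays of the 2 proteins were far apart. utp8, SPCC622.02, pep7 and rit1 were called too, with differences of 2.31, 2.11, 1.83 and 1.36. hrp1, at 2.42 and 0.89 on the Hrp1 arrays, against 0.22 and −0.14 on Hrp3, differed by 1.62 ± 0.41 (SE, limma adjusted p = 0.0426). On the Hrp3 array left out, as labelled, pep7 gave 2.29 and hrp1 1.86, whereas nab3 gave −0.96 and rit1 −1.32. Over all 6 arrays the difference was 0.97 ± 0.64 for pep7 and 0.39 ± 0.73 for hrp1 (SE). mis18, a kinetochore gene needed for CENP-A at centromeres, gave 1.45 and 0.76, against −0.59 and −0.32 on Hrp3, a difference of 1.56 ± 0.35. The others were swt1, rsm1 and egt1, which act on RNA or in ergothioneine synthesis, pdp1, a PWWP-domain protein, and SPCC569.03, SPBC21H7.08 and SPAC16E8.18. Of the 16, 10 were in the high set, which held 2.62% of all regions. Both were drawn from A260E and K080D slide 2, so this overlap is built in and is no result.

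The 55 regions lower for Hrp1 were above 0 on Hrp3 slide 2, at 0.28 or more, and at −0.31 or more on slide 3, and on the Hrp1 arrays 32 were above 0 on average and 23 below. gut2, the mitochondrial glycerol-3-phosphate dehydrogenase, gave 0.49 and −0.17 on the Hrp1 arrays, against 2.39 and 2.16 on Hrp3, a difference of −2.11 ± 0.35 (SE, limma adjusted p = 0.0027). rpl8-1 gave −0.64 and 0.09, against 2.47 and 1.48 on Hrp3, a difference of −2.25 ± 0.38. Against 1.11% of all regions, the lower ones held 5 of the 29 core stress response regions (ctt1, pyp2, pmp3, ntp1 and trx2), 3 of the 18 heat shock regions (hsp90, sti1 and psi1) and 2 of the 137 ribosomal protein regions, counts that were not tested. hsp90 gave 0.89 and 0.97, against 2.64 and 2.20 on Hrp3, so it was above 0 for both proteins and higher for Hrp3. Both probes of ctt1 (catalase), pil1 (eisosome core), pma1 (plasma membrane proton pump) and knh3 were lower for Hrp1, and 9 of the 55 were long probes, of 165 on the array. slu7 and les1 differed with Hrp1 below 0, at −1.75 and −1.50 for slu7, against 0.55 and −0.31 on Hrp3. Of the Swm genes, swm2 was called, at 0.13 and 0.33, against 1.33 and 1.83 on Hrp3. The Hrp1 minus Hrp3 median was −0.93 over the heat shock list, −0.50 over histone genes, −0.70 over tRNA probes and −0.04 over all regions.

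**Figure D4:**
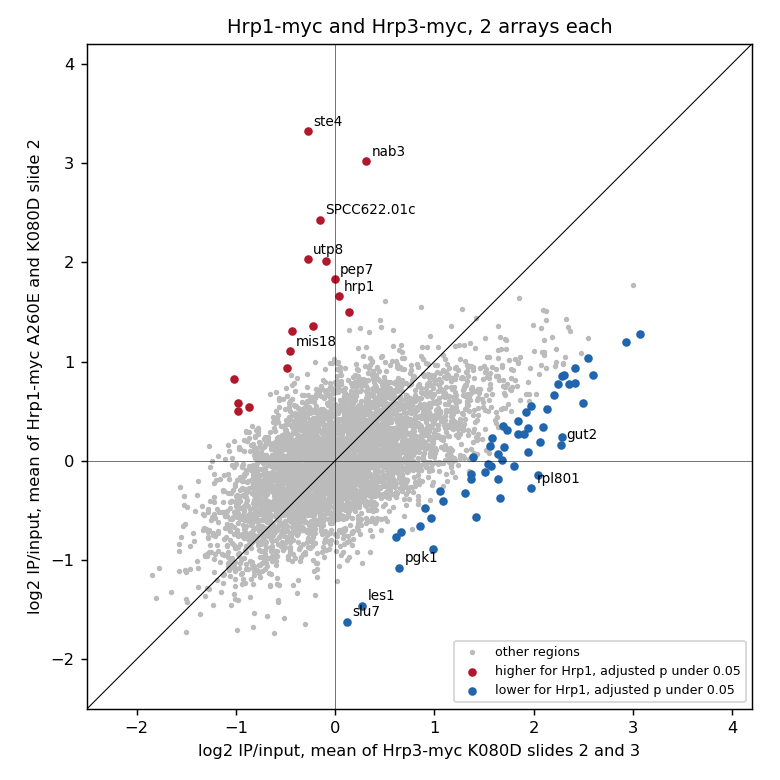
Mean median-centred log2 IP/input on Hrp1-myc A260E and K080D slide 2 (vertical) against the mean on Hrp3-myc K080D slides 2 and 3 (horizontal), 1 point per region with the line of equality; red marks the 16 regions higher and blue the 55 lower for Hrp1 at a limma adjusted p under 0.05. ste4 and nab3 stand above 3 on the Hrp1 axis and near 0 on the Hrp3 axis, and most blue points lie above 1 for Hrp3.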

How the data were processed

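Chromatin IP and input were hybridised to 2-colour spotted IGR arrays, and the authors deposited scanner intensity (signal and local background medians per dye) per spot, before any correction. The authors also deposited normalized values per spot, log10 for the Hrp1-myc arrays and log2 for the H3 arrays, used for the check of identical scans and as an alternative, and 22 of 28 columns of these tables were not read. Scanner software was not given in the sources used here. Intensities were corrected with normexp (offset 50) in limma 3.58.1 (R 4.3.3), and the log2 of Cy3 over Cy5 was centred on each array's median without loess. Ranks, lists and windows used Python 3.11.15, numpy 2.4.6 and pandas 2.3.3. Limma was run on array means with Benjamini-Hochberg adjustment at 0.05 over all regions, 2-sided, and was tested on simulated data. The fit of the 3 Hrp1-myc arrays against 0 had 2 residual and 5.58 prior degrees of freedom. Those of fits on other sets of arrays are not given here. Regions were tied to genes by locus tag (3187), symbol (1014) or synonym (356), 165 were long probes, 217 names were unmatched and 24 ambiguous. Named regions were the 12 highest and 12 lowest by mean rank on A260E and K080D slide 2, the 3 at each end of the 3-array rank and of the test, those nearest the limit, the Hrp and Swm genes and the 2 at each end of each list. Other regions named from the sets were chosen after their values were seen. Members and lists were chosen with earlier results of these data known. Promoter windows are printed for some of the named regions only, and one is not reported here.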

Additional observations from a re-analysis of the deposited data

Results flagged for a closer look

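Values of 3 IGR arrays labelled Hrp1-D H3 cter stood out because they equalled those of the Hrp1-myc arrays, although their titles name another experiment. The shares of equal spots were 99.96% (A260E slide1 against A260E), 99.95% (slide X against K080D slide 1) and 99.91% (slide 20 against K080D slide 2) of 9270 spots.

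Of the regions named, sib2 (SPAC23G3.03) and rhp26 stood out since every Hrp1-myc array lay below 0 and every Hrp3-myc array above it. sib2, which acts in siderophore synthesis, differed by −1.001 (Hrp1 minus Hrp3), with −0.86, −0.29 and −1.59 on the Hrp1 arrays A260E, K080D slide 2 and K080D slide 1 and 0.05, 0.02 and 0.20 on the Hrp3 arrays K080D, slide 2 and slide 3. rhp26, a Snf2-type repair helicase, differed by −0.57, with −0.31, −0.61 and −0.33 on Hrp1 and 0.25, 0.05 and 0.16 on Hrp3. The rule behind this choice was a difference in sign and no test, and limma on all 6 arrays called neither region. The signs hold only with Hrp1 K080D slide 1 and Hrp3 K080D read as labelled, and the direction of both is in doubt. With K080D slide 1 turned, the mean of the Hrp1 arrays was 0.15 for sib2 and −0.20 for rhp26.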

How the results depend on the processing

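The counts of high and low regions on 3 arrays (207 and 227) stayed within 1.5 times without background correction, with plain subtraction, with loess, without dim regions and with K080D slide 1 turned. They were 626 and 632 at a limit of 0.80, 75 and 77 at 0.95, 421 and 367 on the deposited values, and 37 and 30 by the mean of the ranks. Leaving out 1 array in turn gave 64 to 329 high and 76 to 308 low regions, 329 and 308 of them without K080D slide 1. Of the 421 regions high on the deposited values, 37 were among the 207, but these values followed the signal of 1 dye and hardly the ratio (rho 0.20, −0.31 and 0.12 on A260E, K080D slide 1 and K080D slide 2), so they rank signal and not IP over input. On A260E and K080D slide 2 the counts (130 and 148) were 376 and 360 at 0.80 and 54 and 53 at 0.95, and 346 to 403 high and 370 to 405 low on 1 array alone, a choice added after seeing the data. For limma on 3 arrays, turning K080D slide 1 gave 2 higher regions, and leaving out 1 array gave 0 to 343 higher and 0 to 337 lower, above 0 only without K080D slide 1. For Hrp1 minus Hrp3, turning both doubtful arrays gave 1 higher region and leaving both out 16 higher and 55 lower. All other settings run gave 0. Over the 103 named regions, 81 moved by more than the spread between arrays and 11 changed sign with K080D slide 1 included as labelled, and 55 moved and 2 changed sign without background correction. By over 1.5 times in fold, 4 moved without background correction, nab3 (to 2.30), utp8 (1.40), the long probe of pgk1 (1.17) and a tRNA-Trp probe (0.61, against −0.18). Of the 22 list medians, 12 moved and 8 changed sign with K080D slide 1 as labelled, and 7 moved and 2 changed sign without background correction. No paired analysis was possible because the ratios were tested against 0 within each array and the labels of the Hrp1 and Hrp3 arrays share fewer than 2 slide numbers. With 3 arrays, 2 of them agreeing, the precision is limited by their number, and saturated spots on K080D slide 1 give bounds.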
